A study of Mus musculus with 2 samples.

Results

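*Eomes* and *Tbx21*, the 2 genes of the T-box family that govern the CD8+ T cell response, were followed here in OT-I cells with and without forced expression of Eomes. They were picked by their symbols alone, 2 of the 14732 gene symbols listed for at least 1 library. CD8+ T cells came from the spleen and lymph nodes of OT-I transgenic C57BL/6 mice aged 6 to 8 weeks, whose T cell receptor is specific for SIINFEKL, a peptide of ovalbumin (OVA). All cells were activated for 24 h with 2.5 ng/mL SIINFEKL and 10 U/mL IL-2 and then spinoculated with retrovirus. The vector, RVKM, carried an IRES-hCD2 cassette, either alone (control) or behind Eomes (Eomes-overexpressing). Cells bearing human CD2 were sorted 48 h later, plated at 40000 per well and re-stimulated for 3 days with the same doses of OVA peptide and IL-2. Control cells thus differ from resting CD8+ T cells by retroviral infection, sorting and repeated peptide. The number of mice behind each culture was not given in the sources used here. Each condition has 1 library, so no difference below has a replicate check or a p-value.

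T-box factors share a DNA-binding domain, the T-box, and recognise closely similar sites. T-bet, the product of *Tbx21*, drives Th1 and cytotoxic effector differentiation and transcription of *Ifng*. Eomes (Eomesodermin) overlaps with T-bet in inducing the cytolytic genes and sustains memory cells through the IL-15 receptor chain CD122. In chronic viral infection, Eomes is abundant in terminally exhausted CD8+ T cells, in which T-bet is usually low. In tumours, the study that reported the data found Eomes and T-bet together in exhausted CD8+ T cells. The amount of Eomes relative to T-bet therefore does not by itself place a CD8+ T cell between the effector and the exhausted state.

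In mm10, *Eomes* lies on the plus strand of chromosome 9 from 118478212 to 118486132, and *Tbx21* on the minus strand of chromosome 11 from 97098071 to 97115331. The longest transcripts of GENCODE vM21 have 6 exons each and measure 3560 bases for *Eomes*, of which 2124 are coding, and 2488 bases for *Tbx21*, of which 1593 are coding. Because these are related genes, it matters whether a read of the one can be taken for the other. Their coding sequences aligned over 572 bases with 411 identical bases (71.9%), a stretch without gaps that runs from coding base 821 to 1392 of *Eomes* and from 422 to 993 of *Tbx21*. The longest identical run was 16 bases. It is shown in capitals, with 20 bases on either side, from chr9:118482006-118482061 (plus strand) and chr11:97100013-97100068 (minus strand).

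Eomes: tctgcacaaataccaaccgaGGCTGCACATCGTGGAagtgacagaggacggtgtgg
Tbx21: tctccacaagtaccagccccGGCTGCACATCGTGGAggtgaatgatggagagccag

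No stretch of 50 bases was shared between the transcripts of the 2 genes, or between either of them and another T-box gene. All 2439 stretches of 50 bases in *Tbx21* were found in no other gene. In *Eomes*, 80 of 3511 (2.28%) also occurred in transcripts of other genes, and none of these 80 touched the coding sequence. The gene *Gm33460* overlaps *Eomes* on the opposite strand and was not listed in either library.

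The promoters of the endogenous genes are shown next, 250 bases before to 50 bases after the transcription start, from the RefSeq table for GRCm38.p6. The retroviral copy of *Eomes* is transcribed from the vector and does not use the first of them. The windows are chr9:118477939-118478238 (plus strand) and chr11:97115282-97115581 (minus strand), and capitals mark the motifs found.

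Eomes: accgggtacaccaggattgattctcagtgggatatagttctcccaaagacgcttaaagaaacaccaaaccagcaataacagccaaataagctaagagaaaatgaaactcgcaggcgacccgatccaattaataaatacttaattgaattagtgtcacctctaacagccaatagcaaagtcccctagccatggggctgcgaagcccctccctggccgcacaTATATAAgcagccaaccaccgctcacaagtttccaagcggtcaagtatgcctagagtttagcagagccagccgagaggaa
Tbx21: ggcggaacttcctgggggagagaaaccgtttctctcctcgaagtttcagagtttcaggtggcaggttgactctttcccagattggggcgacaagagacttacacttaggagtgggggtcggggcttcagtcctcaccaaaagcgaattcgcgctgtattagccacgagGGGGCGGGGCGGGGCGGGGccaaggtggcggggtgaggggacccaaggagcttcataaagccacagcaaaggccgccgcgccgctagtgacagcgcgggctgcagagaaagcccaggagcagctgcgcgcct

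The *Eomes* promoter has 47.3% GC and holds a TATA box (TATATAA) starting at base -30, a motif present on either strand in 3.24% of 32851 promoters of the same length. The *Tbx21* promoter has 62.0% GC, against a median of 52.7% for all promoters. It holds 3 overlapping GC boxes (GGGGCGGGG) that start at bases -82, -77 and -72, and 11.4% of all promoters hold at least 1. Letters of 5 factor motifs, searched on both strands, were absent from both windows. These were AGGTGT for T-box factors (13.7% of all promoters), TTCNNNGAA for STATs (8.30%), TGTGGT for RUNX factors (16.8%), CTTTGA for TCF/LEF (16.0%) and GTAAACA for FOXO (3.65%).

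Expression values are RPKM, reads scaled to transcript length and library depth, and can therefore be compared between genes. The files listed 14110 genes for control and 13966 for Eomes-overexpressing cells, down to a value of 0.01. The depth was estimated from the values of 1 read in short genes with a single transcript, sought within a set window that bounds the estimate. In units of M reads (megareads), it was about 19.1 for control (95% interval of the median 18.3 to 20.2) and 19.2 for Eomes-overexpressing cells (18.5 to 19.9). Intervals given below are exact binomial (Clopper-Pearson, 95%) on reads approximated from RPKM, this depth and the reference length. They cover counting error only. Of the markers of CD8+ T cells, 10 of 10 were listed in both libraries, from 83.9 to 1195 in the control library and from 80.9 to 1109 in the other.

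In control OT-I cells *Tbx21* was the prevailing T-box mRNA. *Eomes* had an RPKM of 2.47, about 168 reads, and *Tbx21* an RPKM of 41.0, about 1949 reads. *Tbx21* thus stood 16.6-fold above *Eomes* (interval 14.2 to 19.6) and made up 94.3% of their summed RPKM of 43.45. *Eomes* was below the median of the listed genes, at rank 8597 of 14110 from the top (percentile 39.0), whereas *Tbx21* was at rank 2193 (percentile 84.5). Among the 9789 genes with an RPKM of at least 1, *Eomes* was at percentile 12.1 and *Tbx21* at 77.6. Both genes were therefore transcribed in control cells, *Eomes* at a low level.

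In Eomes-overexpressing OT-I cells the order was inverted. *Eomes* had an RPKM of 129.6, about 8875 reads, and *Tbx21* an RPKM of 21.6, about 1033 reads. *Eomes* now stood 6.00-fold above *Tbx21* (interval 5.63 to 6.41) and made up 85.7% of a summed RPKM of 151.2. *Eomes* was at rank 684 of 13966 (percentile 95.1) and *Tbx21* at rank 3584 (percentile 74.3). *Tbx21* remained well transcribed, at 8.74 times the level that *Eomes* had in control cells.

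**Figure D1:**
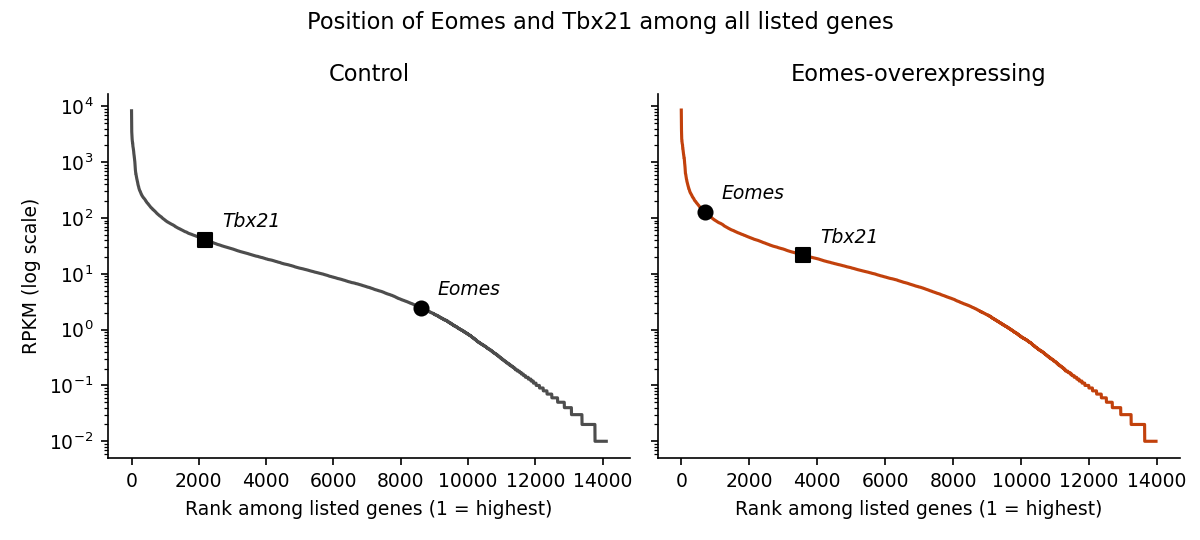
RPKM (log scale) of every listed gene against its rank in the control and the Eomes-overexpressing library, with *Eomes* (circle) and *Tbx21* (square) marked. *Eomes* stands at rank 8597 in control and 684 in Eomes-overexpressing cells, and *Tbx21* at 2193 and 3584, so the order of the 2 genes is exchanged.

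The log2 ratio of Eomes-overexpressing over control was 5.71 for *Eomes* (interval 5.49 to 5.94), a 52.5-fold higher level. It was -0.92 for *Tbx21* (interval -1.03 to -0.82), a level 47.3% below that of control. The fold threshold of 1.5 was taken from the methods of the study, and genes reaching an RPKM of 1 in either library were called expressed. Past that threshold, 2.46% of the 9925 expressed genes were higher and 5.19% were lower in Eomes-overexpressing cells. *Eomes* was 1 of the higher genes and *Tbx21* 1 of the lower genes. *Eomes* had the highest log2 ratio of all expressed genes, and *Tbx21* was at position 223 from the lowest. Among the 500 expressed genes closest to *Tbx21* in mean RPKM, 95% of the log2 ratios lay between -0.49 and 0.40, and 3 genes had a lower ratio than *Tbx21*. In order of abundance, *Eomes* moved up by 7913 places, more than any of the other 9921 expressed genes listed in both libraries, and *Tbx21* moved down by 1391, with 105 genes moving down further. In cultures of many cells, fewer T-bet-expressing cells and less *Tbx21* RNA per cell cannot be told apart.

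**Figure D2:**
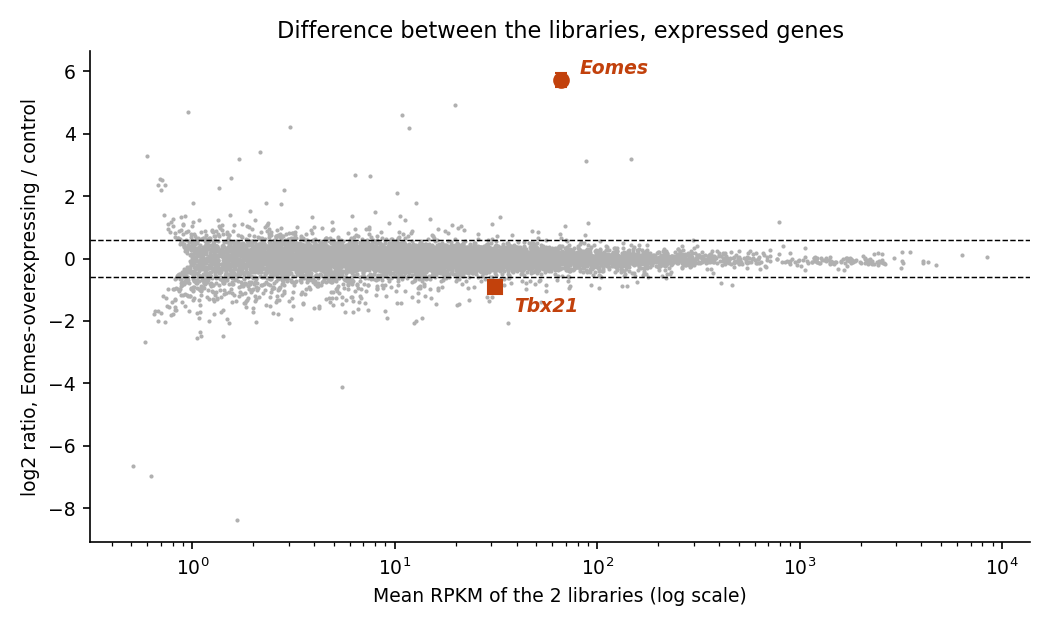
Log2 ratio of Eomes-overexpressing over control against the mean RPKM of the 2 libraries (log scale) for 9925 expressed genes (grey), with dashed lines at 1.5-fold and values below 0.01 set to 0.01. *Eomes* at 5.71 and *Tbx21* at -0.92 are coloured, and their 95% counting intervals are about as small as the symbols.

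The ratio of *Eomes* to *Tbx21* does not depend on how the libraries are scaled to each other, since both values come from the same library. On the log2 scale it went from -4.05 in control (interval -4.29 to -3.83) to 2.59 in Eomes-overexpressing cells (2.49 to 2.68). The change of 6.64, or 99.6-fold, came to 86.1% from the higher *Eomes* and to 13.9% from the lower *Tbx21*. The gain of *Eomes* was 127.2 RPKM and the loss of *Tbx21* was 19.4 RPKM, so the gain was 6.56 times the loss and the summed RPKM of both genes was 3.48-fold higher. *Eomes* in Eomes-overexpressing cells was also 3.16 times as abundant as *Tbx21* in control cells. A value per gene symbol does not separate vector-derived from endogenous *Eomes* transcripts, and these cannot be told apart here. The labels do not say whether untranslated regions were cloned. If reads of the vector covered the coding sequence alone, *Eomes* per kilobase of coding sequence would stand 10.1-fold above *Tbx21*, in place of 6.00-fold.

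The other T-box genes contributed little in either library. Of 17 genes of the family, 12 were listed in at least 1 library, and 3 of them had an RPKM of at least 1. The third, *Mga*, which encodes a MAX-binding repressor with a T-box, had RPKM values of 2.65 (control) and 3.48 (Eomes-overexpressing, log2 ratio 0.39, interval 0.25 to 0.53). In control cells *Mga* was thus at about the level of *Eomes*. *Tbx19*, the T-box factor of pituitary corticotrophs, had an RPKM of 0.28 and 0.13, and the interval of its log2 ratio (-2.56 to 0.40) spans 0. *Tbx2*, *Tbx4*, *Tbx6* and *Tbx20* lay between 0.02 and 0.04 in both libraries. *Tbr1*, *Tbx3*, *Tbx5* and *Tbx15* were listed at 0.01 to 0.05 for Eomes-overexpressing cells alone. *T*, *Tbx1*, *Tbx10*, *Tbx18* and *Tbx22* were listed in neither library.

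**Figure D3:**
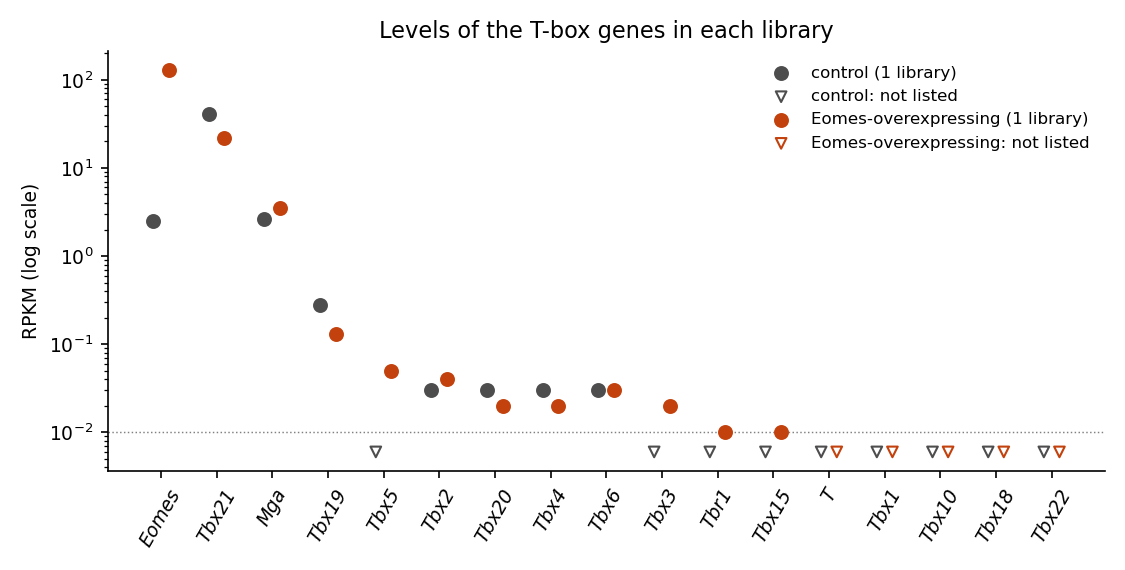
RPKM (log scale) of 17 T-box genes in the control (grey) and the Eomes-overexpressing library (orange), 1 library each. Open triangles below the dotted line at 0.01 mark genes that were not listed. *Eomes*, *Tbx21* and *Mga* are the only T-box genes above an RPKM of 1, and *Eomes* and *Tbx21* exchange their order.

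Genes that flank the members were read next. *Tbkbp1*, which encodes a TBK1-binding adaptor, is the protein-coding gene nearest to *Tbx21*, 20.8 kb away on the same strand. It had RPKM values of 10.7 (control) and 5.61 (Eomes-overexpressing). The log2 ratio of *Tbkbp1*, -0.93 (interval -1.12 to -0.75), was close to the -0.92 of *Tbx21*. On the other side, 29.2 kb away, *Osbpl7* had an RPKM of 8.96 and 7.71 (log2 ratio -0.22, interval -0.38 to -0.05). Within 250 kb on each side of *Tbx21*, a distance chosen after these values were seen, 12 other genes were expressed. *Tbkbp1* was the only one of the 12 past 1.5-fold, where 5.19% of expressed genes were lower by that much. Around *Eomes*, *Golga4* at 20.1 kb had an RPKM of 3.71 and 4.03, and the intervals of its log2 ratio (-0.05 to 0.29) and that of *Cmc1* (-0.13 to 0.44), which lies 328 kb away, span 0. *Golga4* was the 1 expressed gene of 10 annotated within 250 kb of *Eomes*.

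The members were then placed among 81 transcription factors with known roles in CD8+ T cells. *Tbx21* was at rank 20 in control and rank 31 in Eomes-overexpressing cells, and *Eomes* at rank 65 and rank 7. In control cells *Tbx21* stood between *Irf4* (RPKM 42.65), which transmits T cell receptor signal strength, and *Stat5b* (39.4), which acts downstream of IL-2. The counting intervals did not separate *Tbx21* from either. They did separate it from the next factors, *Nfatc1* (46.6) above and *Hopx* (35.65) below, but do not cover errors in the lengths used. *Eomes* in control cells stood between *Maf* (2.73) and *Tcf7* (2.12), the gene of the stemness factor TCF1, with *Egr2* (2.86) above. None of these 3 was separated from *Eomes* by counting error.

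In Eomes-overexpressing cells *Eomes* had joined the most abundant factors of the list. It stood below *Irf8* (RPKM 141.0) and *Bhlhe40* (146.8) and above *Id2* (123.6), an inhibitor of E proteins, and *Batf* (111.5), an AP-1 factor of effector cells. The counting intervals separated all 4 from *Eomes*, but they do not cover errors in the lengths used. *Batf3*, the highest factor of the list there, had an RPKM of 202.2. This order uses the full transcript length of *Eomes*. If reads of the vector covered the coding sequence alone, the level of *Eomes* per kilobase would be 1.68-fold higher. *Eomes* would then stand higher in this order and among all listed genes. *Tbx21* stood between *Gfi1* (22.2) and *Lef1* (21.2), neither of which was separated from it, with *Ikzf3* (23.4) and *Egr1* (20.6) next in order.

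Of the 70 factors of the list that were expressed, 4 were higher and 10 lower by more than 1.5-fold, the members included, against 2.46% and 5.19% of all expressed genes. Without the members, of which *Eomes* was supplied by the vector, 3 of 68 were higher and 9 lower. The median log2 ratio of the 70 was -0.11, against -0.0037 over all expressed genes. *Eomes* was the first by log2 ratio and *Tbx21* the sixth from the lowest. Of the factors that reached an RPKM of 5 in either library, *Id2* (56.3 to 123.6) and *Nr4a3* (12.8 to 19.5), an early-response nuclear receptor, were past the threshold upward. *Egr3* (7.52 to 4.19), *Mxd4* (7.40 to 3.87), *Irf1* (21.6 to 14.1) and *Stat4* (22.5 to 14.8) were past it downward with *Tbx21*. *Stat4*, which transmits the IL-12 signal, and *Irf1*, an interferon-induced factor, are known inducers of the Th1 programme. The interval of the log2 ratio of *Stat4* (-0.73 to -0.48), that of *Irf1* (-0.77 to -0.46) and that of *Nr4a3* (0.51 to 0.70) span the threshold of 0.58 in size.

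**Figure D4:**
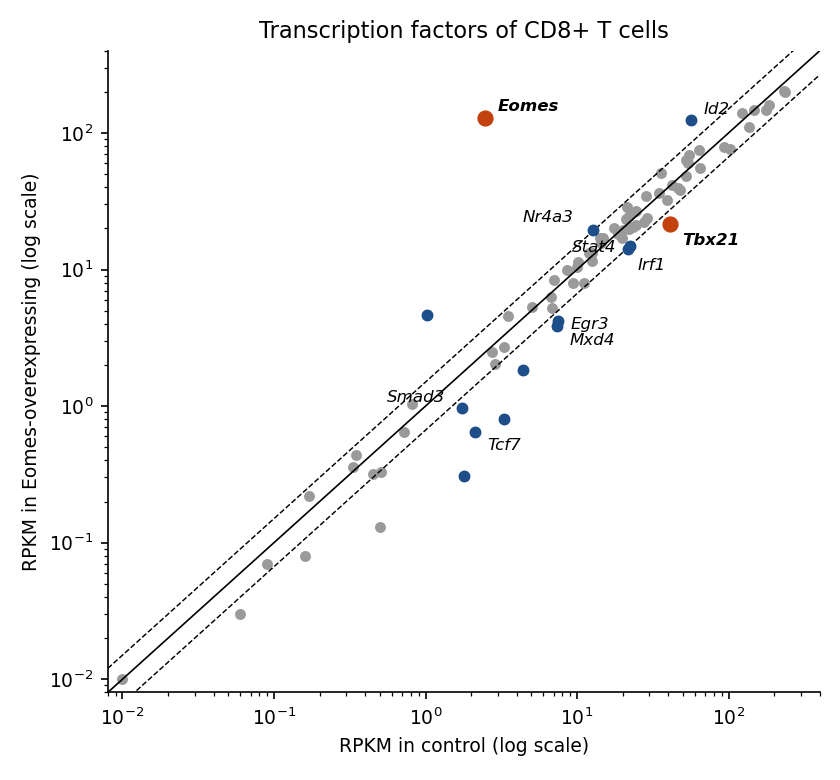
RPKM in Eomes-overexpressing against control cells (both log scales) for 81 transcription factors of CD8+ T cells, with the line of equality and dashed lines at 1.5-fold. *Eomes* and *Tbx21* are orange, the other expressed factors past 1.5-fold are blue, with labels on those described in the text, and the rest are grey. *Eomes* lies far above the line at 2.47 and 129.6, and *Tbx21* below it at 41.0 and 21.6.

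The genes of signals known to induce *Tbx21* were read next. Of 18 genes of the IFN-γ, IL-12, IL-27, mTOR and Notch pathways, all expressed, none was higher and 3 were lower by more than 1.5-fold, where 2.46% and 5.19% of all expressed genes were (median log2 ratio -0.13). The 3 were *Stat4*, *Irf1* and *Ifngr2*, the signalling chain of the IFN-γ receptor, whose RPKM was 1.14 and 0.63 (log2 ratio -0.86, interval -1.42 to -0.31). *Ifng* itself, which is also a target of both factors, was at 1343 and 1357 and *Il12rb2* at 49.2 and 41.5. Of 17 genes upstream of *Eomes*, 1 was higher and 2 were lower (median -0.22), against the same shares of all expressed genes. *Il10ra* was higher (7.44 to 13.4), *Tcf7* lower (2.12 to 0.65) and *Il4ra*, the IL-4 receptor chain, lower (42.5 to 27.1). The study that reported the data states that Eomes can lower *Tcf7* and *Stat4* by direct binding. It gives *Il10ra*, raised, and *Tbx21*, lowered, as examples of indirect regulation by Eomes. Eomes was supplied by the vector, so the differences of these genes were measured after Eomes was forced. Whether the listed genes also act on the endogenous *Eomes* or *Tbx21* gene in these cells was not tested. *Runx3*, which drives cytotoxic differentiation and induces *Eomes*, had an RPKM of 54.4 and 60.7. Of 7 genes that restrain both factors, 5 were expressed, of which 1 was lower, *Smad3* (1.73 to 0.97), beside 5.19% of all expressed genes (median 0.22). The interval of the log2 ratio of *Smad3* (-1.21 to -0.46) spans the threshold too.

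Genes that Eomes and T-bet are both known to activate lay within 1.5-fold between the libraries, with 2 exceptions. Of 10 such genes, 2 were more than 1.5-fold higher and none was lower, beside 2.46% and 5.19% of all expressed genes (median log2 ratio 0.07). *Gzma*, a granzyme, was at 490.4 and 1100 and *Fasl*, the death receptor ligand, at 13.8 and 27.1. The cytolytic genes *Prf1* (709 and 940) and *Gzmb* (8306 and 8563) were within 1.5-fold, as were *Nkg7* (650 and 785), *Il2rb* (674 and 702) and *Ifng*. The chemokine genes *Ccl5* (322 and 343), *Ccl3* (752 and 619) and *Ccl4* (294 and 271) were also within it.

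The genes known mainly as targets of T-bet lay on both sides. Of 12 in the list, 11 were listed and 8 expressed, of which 2 were higher and 2 lower, where the shares over all expressed genes were 2.46% and 5.19% (median log2 ratio -0.10). *Cxcr3* (21.2 to 8.83) and *Il18r1* (40.7 to 25.9), receptors of Th1-type cells, were lower. *Klrg1* (0.45 to 1.56), a marker of terminal effector cells, was among the higher ones. *Zeb2* (0.33 and 0.36) was below an RPKM of 1 in both libraries and *S1pr5* was not listed.

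The genes known mainly as targets of Eomes were also divided. Of 10, all expressed, 2 were higher and 5 lower by more than 1.5-fold, set against 2.46% and 5.19% of all expressed genes (median -0.56). *Gzmk*, the granzyme of Eomes-high cells, went from 1.25 to 38.2 (log2 ratio 4.93, interval 4.43 to 5.51) and *Cd244* from 2.92 to 5.81. *Cxcr4* (13.6 to 6.63), *Klrc2* (1.31 to 0.78) and *Klrc1* (17.3 to 11.25) were among the lower ones. The mRNA of 15 protein partners of the T-box factors, such as *Kdm6b*, *Smarca4* and *Runx3*, lay within 1.5-fold in all 12 that were expressed (median 0.02). Most expressed genes lay within it too, since 2.46% were higher and 5.19% lower by more than that.

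**Figure D5:**
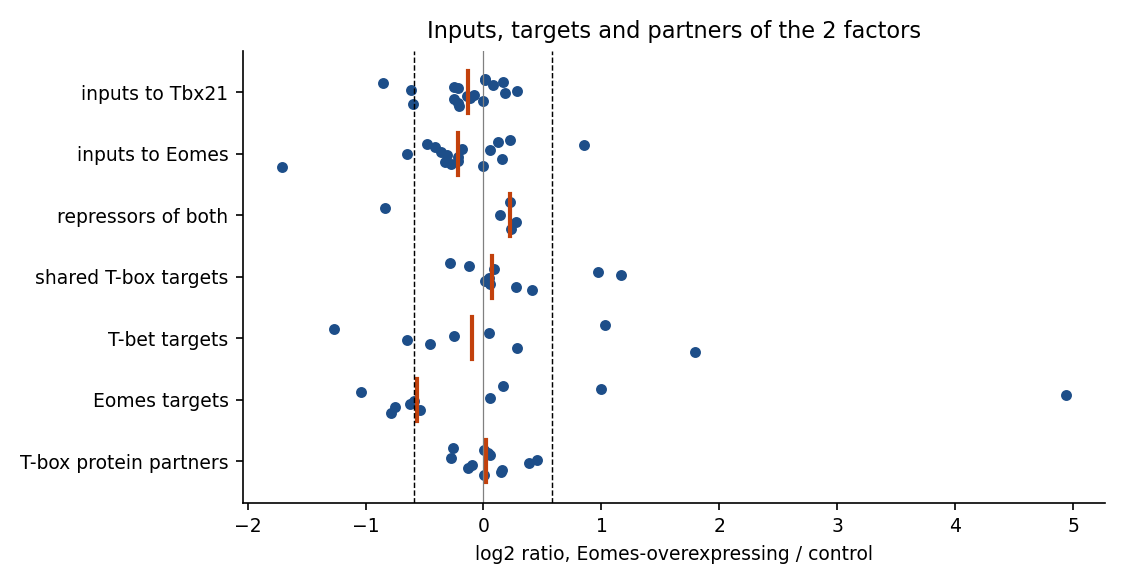
Log2 ratio of Eomes-overexpressing over control for the expressed genes of 7 lists (points), with the median of each list as an orange bar and dashed lines at 1.5-fold. The medians lie between -0.56 (Eomes targets) and 0.22 (repressors of both), and the point at 4.93 is *Gzmk*.

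Over the 2 libraries, the genes closest to *Tbx21* in both levels, by Euclidean distance of log2 RPKM among 9921 genes, were *Arhgdig* (36.85 and 22.2, distance 0.16), *Slfn2* (43.2 and 23.85, distance 0.16) and *Nsmce1* (44.3 and 24.9, distance 0.23). *Eomes* had no such close neighbours. The nearest were *Gzmk* at a distance of 2.02, *Khdc1c* (1.23 and 22.4) at 2.73 and *Gzme* (18.1 and 157.7) at 2.89.

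Markers of other cells were read because NK cells also transcribe *Eomes* and *Tbx21*. Of 10 NK cell markers 6 were listed, which summed to 0.79 RPKM (control) and 6.75 RPKM (Eomes-overexpressing). Most of the difference lay in *Klrb1c*, which encodes NK1.1 (0.31 to 5.74), and the defining marker *Ncr1* was listed in neither library. Past 1.5-fold, 2.46% of all expressed genes were higher and 5.19% lower, which is the background for the markers named here. Of the CD8+ T cell markers, *Cd8a* (181.8 to 99.1) and *Cd2* (265.3 to 170.85) were more than 1.5-fold lower beside *Tbx21*, and the other 8 were within 1.5-fold. The interval of the log2 ratio of *Cd2* (-0.694 to -0.576) spans the threshold of 0.585 in size. B cell markers were listed for 5 of 7 genes (summed RPKM 3.65 and 1.91), of which *Cd79b* was expressed and lower, and *Ms4a1* and *Pax5* were not listed. Myeloid markers were listed for 3 of 7 (4.08 and 5.87), of which *Cd68* was higher, while *Lyz2* and *Csf1r* were not listed. CD4 T cell markers summed to 14.3 and 11.8, nearly all of it *Zbtb7b*, with *Cd4* at 0.03 and 0.08. Dendritic cell markers summed to 2.06 and 1.34, with *Xcr1* lower. The intervals of the log2 ratios of *Cd79b* (-1.41 to -0.27), *Cd68* (0.32 to 1.25) and *Xcr1* (-1.07 to -0.31) also span that threshold. What part such other cells have in the levels of *Eomes* and *Tbx21* was not tested.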

How the data were processed

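Total RNA of 1 control and 1 Eomes-overexpressing culture was sequenced. The authors filtered the reads with SOAPnuke, mapped them with HISAT (HISAT2 in the submitters' processing notes) and Bowtie2 to mm10, and computed expression with RSEM. The deposited values (FPKM by the header, RPKM by the methods) have 2 decimals and start at 0.01. Symbols turned into dates (20 and 19) were left out. Authors' fold changes were not used.

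Values not listed were set to 0.01 for log2 ratios. Depth was estimated from 36 and 32 genes of at most 1200 bases with 1 GENCODE vM21 transcript. Their value times length in kilobases lay between 0.04 and 0.065, a window set to hold the value of 1 read. The median was taken inside this window, so the depth could not fall outside the range that the window allows. The depth, and hence the intervals, also assumes that the lengths match those of the authors, which are not given in the sources used here. With 1 library per condition no test was made. Calculations used Python 3.11.15, numpy 2.4.6, pandas 2.3.3, scipy 1.17.1, biopython 1.88 and matplotlib 3.10.9. The depth estimate and the 1.5-fold calls were tried on simulated data. The simulation used the same lengths, and depths inside the window, so it could not test those 2 assumptions.

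The members and gene lists were chosen with earlier results of these data known. The rule for naming genes took all listed T-box genes, neighbours in rank among the factors, the 3 genes nearest in both levels, factors past 1.5-fold at an RPKM of at least 5, and up to 4 genes per direction past 1.5-fold in the other lists. Other genes were named after their values were seen. Some genes that the rule names are not reported here. Alternatives were pseudocounts of 0.1 and 1, scaling to TPM, by a trimmed mean or to the median, centring in 20 bins of GC content, coding length, other minimums and a 2-fold threshold.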

Additional observations from a re-analysis of the deposited data

How the results depend on the processing

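The direction of both members and of their balance held under each alternative tried. The log2 ratio of *Tbx21* stayed between -0.92 and -0.82, with -0.82 after centring by GC content and -0.89 after scaling to TPM. That of *Eomes* was 5.23 with a pseudocount of 1, which lowers ratios of low values by construction, and lay between 5.66 and 5.79 otherwise. The change of the log2 balance was 6.13 with a pseudocount of 1. It was 7.38 with the coding length for *Eomes* in the Eomes-overexpressing library, where the log2 ratio of *Eomes* to *Tbx21* became 3.33. The control value was left unchanged in this alternative. The numbers of genes more than 1.5-fold higher and lower became 1356 and 2088 with no minimum RPKM, 95 and 213 with a minimum of 5, and 69 and 175 at 2-fold, since each admits more or fewer genes. *Tbx21*, 1.90-fold lower, is not past the 2-fold threshold. Centring by GC content gave 194 and 481. No paired analysis was possible because each condition has 1 library. The 168 reads approximated for *Eomes* in control limit the precision of its ratio.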
